A study of Homo sapiens with 30 samples.

Results

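A group of 10 inflammatory genes, with 4 CXC chemokines (CXCL1, CXCL2, CXCL3 and CXCL8), 3 cytokines of the IL-1 family (IL1A, IL1B and IL18), the receptor subunit IL20RB, the growth factor CSF2 and the cyclooxygenase PTGS2, was examined by RNA sequencing in 3 human cancer cell lines. They were taken by symbol, and all 10 were found among the 38122 genes of the table. The lines were SiHa, from a squamous carcinoma of the cervix, HCT116, from a carcinoma of the colon, and FaDu, from a squamous carcinoma of the hypopharynx. Each line was cultured in DMEM set to pH 7.4 or to pH 6.5, and the acidic cultures had spent 1 month or longer at that pH. Medium was the same in all groups, with 10% fetal bovine serum, 10 mM glucose, 2 mM glutamine, penicillin, streptomycin and a buffer of HEPES and PIPES (25 mM each), at 37 °C and 5% CO2. The 6 groups held 5 libraries each, and the numbers of cultures and of separately adapted populations behind them are not given, so p-values measure the spread between libraries. Values are normalised read counts, which set the same gene side by side across libraries. Changes are log2 differences of the normalised count plus 1, at pH 6.5 minus pH 7.4, with SE. A gene was tested in a line where its mean reached 10 in the higher group, and a change was called at a limma adjusted p under 0.05.

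Of the 30 libraries, 9 were kept apart from the comparisons because they went against their labels or stood away from their group. The libraries labelled FaDu pH 7.4 replicates 2 to 5 held genes restricted to FaDu at 10.9% to 66.6% of their usual level and genes restricted to HCT116 at 30.6% to 80.4%. Those labelled HCT116 pH 6.5 replicates 5 to 7 held HCT116 genes at 0.581% to 58.8% and SiHa genes at 37.5% to 104%. SiHa pH 7.4 replicates 6 and 7 held VIM, a mesenchymal filament gene, at 2817 and 2863, against 165 at most in the kept libraries. The 21 kept libraries, with 25.3 to 50.8 M reads, held genes of other lines at 0.0708% at most. All these shares are medians over the restricted genes of a line. The genes were picked in FaDu pH 6.5, HCT116 pH 7.4 and SiHa pH 6.5, so low shares in those groups were set by the choice. In the other kept libraries the highest share was 0.0465%, in HCT116 pH 6.5 replicate 1. The kept libraries numbered 5 at pH 6.5 against 3 at pH 7.4 in SiHa, 2 against 5 in HCT116 and 5 against 1 in FaDu. The single FaDu library at pH 7.4 was taken to vary like those at pH 6.5. All 12 squamous epithelium markers had a mean of 10 or more in FaDu. In SiHa 9 and 10 of 12 did at pH 6.5 and 7.4, with KRT13 below 1. In HCT116 11 and 8 of the 12 did, so this count does not set the squamous lines apart from the colon line. Of 10 colon epithelium markers, 5 and 6 did in HCT116 at pH 6.5 and 7.4, with CDX1 and FABP1 below 1. Of the leukocyte markers tested between pH groups, 0 of 4 were called in SiHa, 2 of 6 in HCT116 (1 in each direction) and 0 of 5 in FaDu, and of the endothelial markers 1 of 1 (higher), 1 of 3 (lower) and 0 of 3. RNA was pooled over cells, so fewer expressing cells and less RNA per cell cannot be told apart.

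CXCL1, CXCL2, CXCL3 and CXCL8 encode secreted chemokines that bind the receptors CXCR1 and CXCR2 and draw neutrophils. IL-1 alpha (IL1A) and IL-1 beta (IL1B) bind the receptor of IL1R1 and IL1RAP, which signals through MYD88 to the transcription factor NF-kappaB, and NF-kappaB in turn induces the chemokine genes, CSF2 and PTGS2 in many epithelial cells. IL-18 needs cleavage by caspase-1 in the inflammasome before it is active, and its gene is constitutively expressed in many epithelia.

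The promoters of the 4 chemokine genes are shown because their levels were correlated over the kept libraries, each centred on the mean of its line. This correlation pools the lines and keeps the pH difference, and none was taken within any line. In SiHa the changes of these genes with pH went both ways. RefSeq entries on GRCh38.p14 were found for 9 of the 10 genes. The 4 genes lie in 1 cluster on chromosome 4, and the runs below are the 150 bases before each gene start, read 5′ to 3′ on the strand of the gene: chr4:73869243-73869392 on the plus strand for CXCL1, chr4:74099196-74099345 on the minus strand for CXCL2, chr4:74038690-74038839 on the minus strand for CXCL3 and chr4:73740419-73740568 on the plus strand for CXCL8. Capitals mark GGAATTTCC, a run of the kind that NF-kappaB factors bind, picked after the sequences were read.
CXCL1: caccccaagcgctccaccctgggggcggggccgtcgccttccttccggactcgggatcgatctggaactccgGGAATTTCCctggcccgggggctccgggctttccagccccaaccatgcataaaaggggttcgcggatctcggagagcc
CXCL2: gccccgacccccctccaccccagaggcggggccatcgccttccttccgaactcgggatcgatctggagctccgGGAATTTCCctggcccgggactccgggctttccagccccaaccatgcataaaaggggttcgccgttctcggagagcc
CXCL3: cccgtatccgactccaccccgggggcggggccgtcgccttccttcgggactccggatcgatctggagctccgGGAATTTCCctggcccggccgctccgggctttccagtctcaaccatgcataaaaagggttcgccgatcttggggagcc
CXCL8: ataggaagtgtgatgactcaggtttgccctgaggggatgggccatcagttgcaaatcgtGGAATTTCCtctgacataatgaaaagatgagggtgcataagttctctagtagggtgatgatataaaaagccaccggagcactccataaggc
The run GGAATTTCC began 78, 77, 78 and 91 bases before the start of CXCL1, CXCL2, CXCL3 and CXCL8. Searched on both strands in the 250 bases before 35116 gene starts of the same table, it was held by 0.413%. Among the other members with an entry (IL1A, IL1B, IL20RB, CSF2 and PTGS2) it was in none of these windows. Since the run was picked in the 4 chemokine promoters, its presence there is no test. Variants of it were not searched, so its absence elsewhere does not show that sites for NF-kappaB are lacking. CXCL1 and CXCL2 shared an unbroken run of 42 bases, CXCL2 and CXCL3 one of 37, and CXCL1 and CXCL3 one of 25, whereas each shared with CXCL8 only the 9 bases in capitals. CXCL8 also held TGACTCA, the run bound by AP-1 factors, 137 bases before its start, and TATAAA at 31 bases, runs that 4.20% and 10.7% of all windows held. PTGS2 held TATAAA at 32 bases. IL1A has 2 windows in the table, of which both held TGACTCA and 1 held TATAAA, at 239 bases. These runs were searched on both strands too. Because CXCL1, CXCL2 and CXCL3 are near-identical copies, reads may have been split between them in counting, and their separate values are uncertain to that extent.

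**Figure D1:**
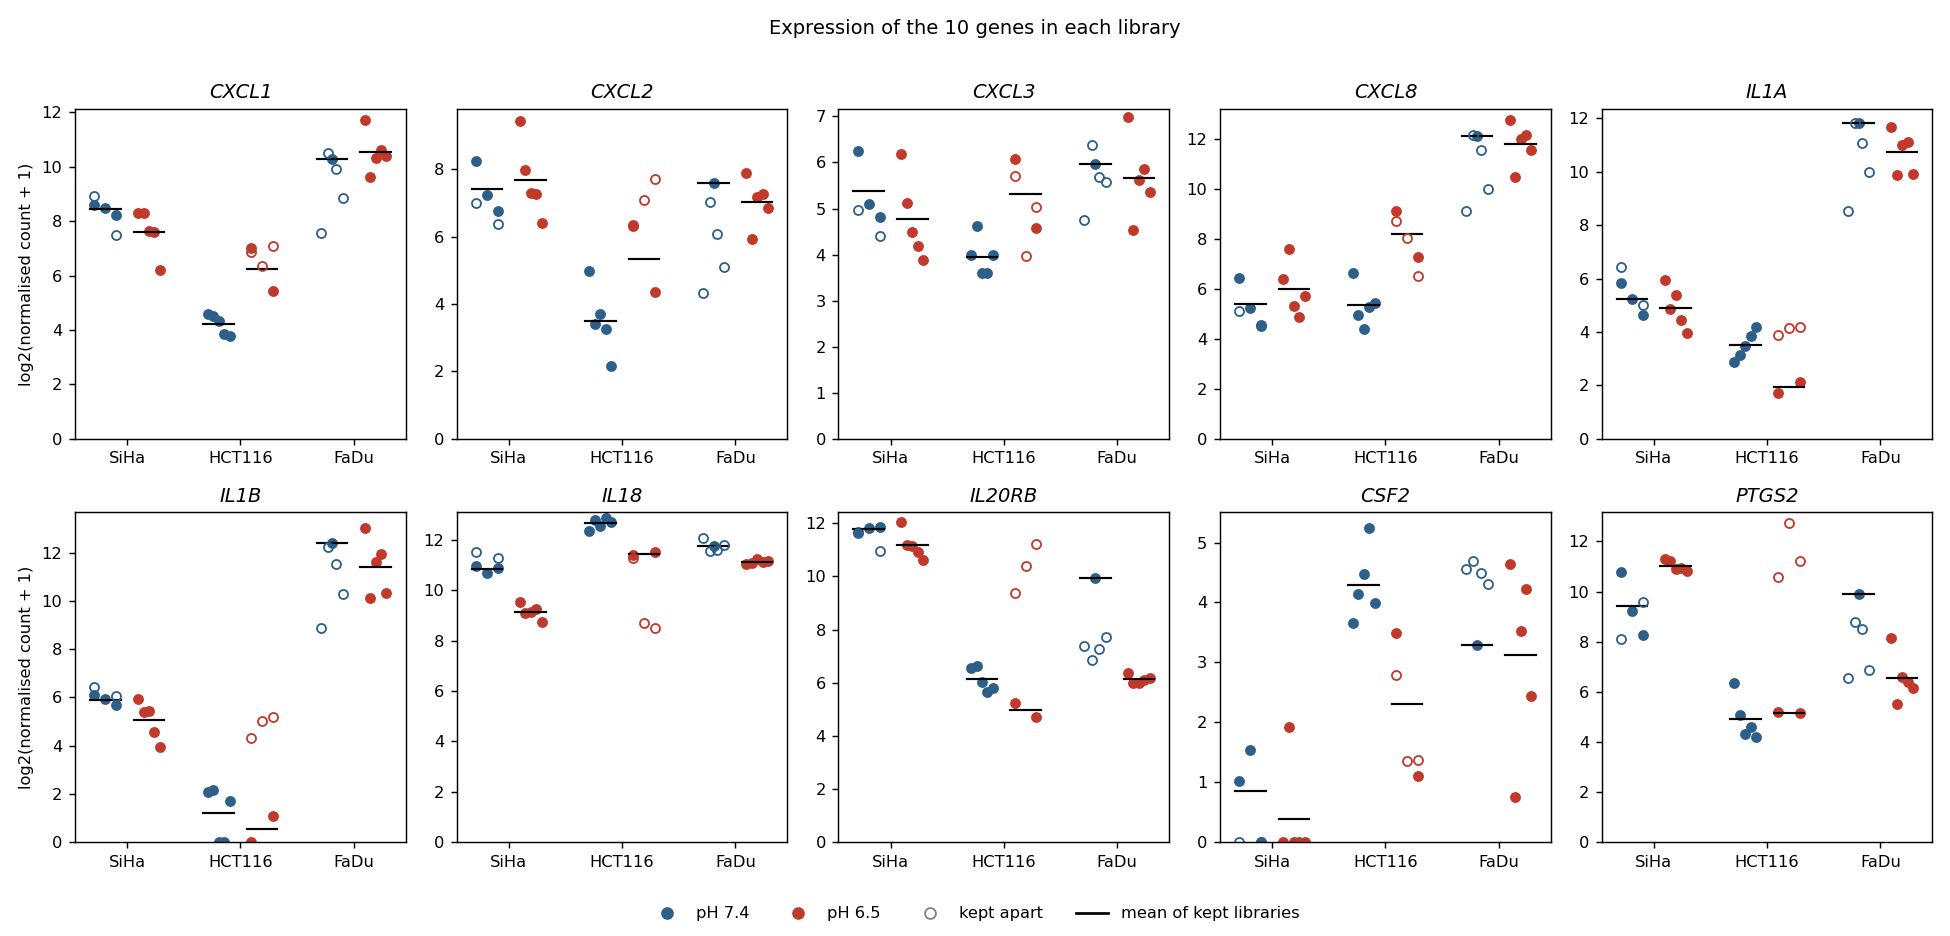
Expression of each gene in every library, as log2 of the normalised count plus 1 on the vertical axis, by line on the horizontal axis. Filled points are kept libraries at pH 7.4 (blue) or pH 6.5 (red), open points the libraries kept apart, and bars the mean of the kept libraries. IL18 is the gene whose pH groups are separate in all 3 lines.

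The question asked of each line was how the 10 genes differed between cells kept at pH 6.5 and cells at pH 7.4. In HCT116, 6 of 9 tested genes were called, 2 higher and 4 lower at pH 6.5, where 20.2% of all tested genes were called (9.11% higher and 11.1% lower). In SiHa, 2 of 9 were called, 1 in each direction, beside 31.2% of all genes, and in FaDu 2 of 10, both lower, beside 7.36% (4.24% higher and 3.12% lower). The median change of the tested members was −0.59 in SiHa, 0.25 in HCT116 and −0.59 in FaDu, and that of all tested genes was −0.01 in each line. Kept libraries of the pH groups did not overlap for 2 members in SiHa, 6 in HCT116 and 4 in FaDu, where 35.5%, 36.2% and 57.1% of all tested genes did not overlap. IL18 was the only member called in all 3 lines. The counts moved when 1 library was left out: in SiHa to 4 without pH 6.5 replicate 1 and to 1 without pH 7.4 replicate 4 or 5, in HCT116 to 2 without pH 6.5 replicate 1, and in FaDu to 1 without pH 6.5 replicates 2, 3, 4 or 5 and to 3 without replicate 1. Squamous markers moved with pH too: 6 of 10 tested were lower and 0 higher in SiHa (summed level 39867 to 109733 at pH 6.5 and 101908 to 112610 at pH 7.4), and 3 of 12 were lower and 0 higher in FaDu (330068 to 512730 at pH 6.5 and 604267 in the neutral library). The summed levels are those of all 12 squamous markers listed. Their part in the changes of the members in these lines was not tested. With 9 or 10 genes tested in a line, no count is read as particular to these genes.

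In HCT116, CXCL1 and CXCL8 rose at pH 6.5, and CXCL2 and CXCL3 had positive estimates that were not called. CXCL1 stood at 128 and 42.2 in HCT116 pH 6.5 replicates 1 and 3, and at 23.3, 21.8, 19.1, 13.5 and 12.6 in pH 7.4 replicates 1, 3, 5, 6 and 7. Both acidic libraries were above all 5 neutral ones, and replicate 1 was the higher of the pair. The change was 2.01 ± 0.43, or 4.03-fold higher (n = 2 and 5; limma adjusted p = 0.00692).

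CXCL8, the gene of interleukin-8, stood at 549 and 155 at pH 6.5 and at 98.5, 29.6, 20.1, 38.1 and 42.4 at pH 7.4 in the same HCT116 libraries. The groups did not overlap, and the highest neutral library was again replicate 1. The change was 2.85 ± 0.55, or 7.23-fold higher (n = 2 and 5; limma adjusted p = 0.00367). Without HCT116 pH 6.5 replicate 1, neither gene was called, at 1.219 for CXCL1 and 1.95 for CXCL8 (limma adjusted p = 0.126 and 0.0971), with replicate 3 alone at pH 6.5 and assumed to vary like the others.

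CXCL2 stood at 79.0 and 19.4 at pH 6.5 and at 30.7, 9.58, 12.1, 8.60 and 3.44 at pH 7.4 in HCT116. Replicate 3 at pH 6.5 was below replicate 1 at pH 7.4, so the groups overlapped. Its change of 1.83 ± 0.69 was not called (n = 2 and 5; limma adjusted p = 0.0802). CXCL3 stood at 66.4 and 22.8 against 14.8, 23.5, 11.1, 11.1 and 14.9, and its change of 1.37 ± 0.45 was not called (n = 2 and 5; limma adjusted p = 0.0518). Tests on the recovered reads called both: edgeR's quasi-likelihood test gave adjusted p = 0.0428 for CXCL2 and 0.0244 for CXCL3, and DESeq2 gave 0.0236 and 0.0183. Without HCT116 pH 7.4 replicate 1 CXCL2 was called at 2.204 (limma adjusted p = 0.0202), and CXCL3 was called without pH 6.5 replicate 3 (2.12; limma adjusted p = 0.0188) or pH 7.4 replicate 3 (1.53; limma adjusted p = 0.0427).

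In the 3 libraries labelled HCT116 pH 6.5 replicates 5, 6 and 7, which held SiHa genes, CXCL1 stood at 114, 80.2 and 136 and CXCL8 at 423, 261 and 90.3. With these included, the HCT116 changes were 2.33 for CXCL1, 2.86 for CXCL2 and 2.59 for CXCL8, each called (limma adjusted p = 0.00288, 0.0193 and 0.0131), and 1.12 for CXCL3, not called (limma adjusted p = 0.0868). Replicates 6 and 7 held HCT116 genes at 1.94% and 0.581% and SiHa genes at 101% and 104%. SiHa at pH 6.5 held CXCL1 at 72.6 to 316 and CXCL2 at 83.7 to 686. Line and pH cannot be told apart in these changes.

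In SiHa none of the 4 chemokines was called in the main fit, and their estimates went both ways. CXCL1 stood at 313, 316, 197, 192 and 72.6 in SiHa pH 6.5 replicates 1, 4, 5, 6 and 7, and at 380, 359.9 and 301 in pH 7.4 replicates 1, 4 and 5. The groups overlapped, with replicate 7 far below the rest, and the difference was −0.83 ± 0.40 (95% interval −1.70 to 0.04; n = 5 and 3; limma adjusted p = 0.131). CXCL2 stood at 686, 250.4, 156, 153 and 83.7 against 303, 149.7 and 107, a difference of 0.26 ± 0.56 (n = 5 and 3; limma adjusted p = 0.755). With libraries of 1 replicate number taken as a block, CXCL2 was called (0.82; limma adjusted p = 0.00799). CXCL3 differed by −0.62 ± 0.51 and CXCL8 by 0.57 ± 0.57 (limma adjusted p = 0.374 and 0.476). CXCL8 ranged from 28.4 to 190.3 at pH 6.5 and from 22.6 to 84.5 at pH 7.4.

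In FaDu the single neutral library lay inside the acidic range for all 4 chemokines. CXCL1 stood at 3363, 783, 1267, 1562 and 1335 in FaDu pH 6.5 replicates 1 to 5 and at 1230.2 in pH 7.4 replicate 1. CXCL8 stood at 6969, 1413, 4064, 4536 and 2977 against 4434. The intervals of the differences were wide, −1.20 to 1.72 for CXCL1 and −1.97 to 1.30 for CXCL8, and none of the 4 was called. CXCL2 ranged from 60.4 to 238 against 193, and CXCL3 from 22.2 to 126 against 61.5. In the 4 libraries kept apart, CXCL1 stood at 186, 1437, 959 and 461 and CXCL8 at 547, 4545, 3036 and 1014, and they held 10.9%, 66.6%, 50.2% and 27.7% of FaDu genes. Levels of both genes were thus ranked as these shares were.

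IL18 was lower at pH 6.5 in every line. In SiHa it stood at 743, 549.9, 569, 619 and 422 at pH 6.5 and at 2009, 1638 and 1896 at pH 7.4. Every acidic library was far below the lowest neutral one. It fell by 1.69 ± 0.16, to a level 3.22-fold lower (n = 5 and 3; limma adjusted p = 8.08e-05). In SiHa pH 7.4 replicates 6 and 7, kept apart, it stood at 2923 and 2518, and with them the change was −1.91.

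In HCT116, IL18 stood at 2696 and 2913 at pH 6.5 and at 5215, 7143, 6106, 7537 and 6722 at pH 7.4, with no overlap. It fell by 1.21 ± 0.15, to a level 2.32-fold lower (n = 2 and 5; limma adjusted p = 0.000161). Of the 3 libraries kept apart, the one labelled replicate 5 held 2488 and replicates 6 and 7 held 418 and 362, below the lowest kept SiHa library at pH 6.5.

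In FaDu, IL18 stood at 2093, 2183, 2428, 2235 and 2295 at pH 6.5 and at 3429 in pH 7.4 replicate 1. The acidic libraries lay close together and below the neutral one. It fell by 0.61 ± 0.12, to a level 1.53-fold lower (n = 5 and 1; limma adjusted p = 0.0329). This call was lost without pH 6.5 replicates 2, 3, 4 or 5 (changes of −0.60, −0.64, −0.61 and −0.62; limma adjusted p = 0.0759, 0.0835, 0.101 and 0.0711), and with scaling to the library total (−0.54; limma adjusted p = 0.0616). The libraries kept apart held IL18 at 4285, 3030, 3152 and 3605, and with them the change was −0.63 (limma adjusted p = 0.00105). They also held HCT116 genes, and IL18 in HCT116 at pH 7.4 was 5215 to 7537. Line and pH cannot be told apart in that change.

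IL1A and IL1B, the alarmin and the secreted cytokine that share the IL-1 receptor, were abundant in FaDu and scarce in HCT116. In FaDu, IL1A stood at 3300, 947, 2076, 2218 and 978 at pH 6.5 and at 3672 at pH 7.4, and IL1B at 8349, 1105, 3164, 3971 and 1292 against 5486. The neutral library was above all acidic ones for IL1A, and replicate 1 at pH 6.5 was above it for IL1B. Neither was called, at −1.11 ± 0.65 and −1.01 ± 0.98 (n = 5 and 1; limma adjusted p = 0.301 and 0.535).

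In SiHa, IL1B stood at 60.6, 40.6, 42.1, 22.4 and 14.5 at pH 6.5 and at 67.2, 59.7 and 50.8 at pH 7.4, and the groups overlapped through pH 6.5 replicate 1. The difference of −0.85 ± 0.40 was not called (n = 5 and 3; limma adjusted p = 0.126). It was called without that library (−1.07; limma adjusted p = 0.0416) and with the libraries kept apart (−0.99; limma adjusted p = 0.0323), in which IL1B stood at 85.4 and 65.1. IL1A stood at 14.5 to 60.6 at pH 6.5 and 23.7 to 56.0 at pH 7.4 in SiHa, with a difference of −0.32 ± 0.44 (limma adjusted p = 0.603).

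In HCT116, IL1A was near the lower end of what these libraries measure. It stood at 2.29 and 3.42 at pH 6.5 and at 6.36, 7.84, 10.1, 13.5 and 17.2 at pH 7.4. The groups did not overlap, and it fell by 1.58 ± 0.49 (n = 2 and 5; limma adjusted p = 0.0405). The call was lost without pH 6.5 replicate 1 or 3 (limma adjusted p = 0.183 and 0.0709), without pH 7.4 replicate 3, 5 or 6 (0.0555, 0.0771 and 0.0851), and in edgeR and DESeq2 (adjusted p = 0.0673 and 0.133). With the libraries kept apart, which held 13.8, 17.0 and 17.4, the change was −0.28. IL1B reached 3.49 at most in the 7 kept HCT116 libraries and was not tested. A count of 0 allows up to 3 reads, which is 1.90 to 5.01 normalised counts depending on the library, for counting error alone.

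IL20RB encodes the beta subunit that joins IL20RA or IL22RA1 to receive IL-19, IL-20 and IL-24. In FaDu it stood at 82.2, 62.5, 62.1, 67.9 and 70.7 at pH 6.5 and at 992 in pH 7.4 replicate 1. All 5 acidic libraries lay within a narrow range far below the neutral one. It fell by 3.83 ± 0.24, to a level 14.2-fold lower (n = 5 and 1; limma adjusted p = 0.00243), a value that rests on 1 library at pH 7.4.

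The 4 FaDu pH 7.4 libraries kept apart held IL20RB at 166, 114, 153 and 210.1, above every acidic library and far below replicate 1. A sum of FaDu pH 7.4 replicate 1 and the mean of HCT116 at pH 7.4, each weighted by the share of line genes, would give 166, 683, 528 and 319 in replicates 2 to 5. The same sum with the mean of FaDu at pH 6.5 would give 65.0, 67.9, 65.2 and 63.4. The measured values matched the first sum in replicate 2 and lay between the sums in the other 3. With these libraries included the change was −1.71 (limma adjusted p = 0.0163). This sum was added after the values were seen, and it did not reproduce every member. IL18 in replicates 2 to 5 stood at 4285, 3030, 3152 and 3605, below both sums. These were 5637, 4290, 4517 and 5004 with FaDu at pH 7.4 and 5508, 3502, 3924 and 4676 with FaDu at pH 6.5. In replicates 3 and 4, CXCL1, CXCL3, CXCL8, IL1A, IL1B and CSF2 lay above both sums. CXCL3 and CSF2 did so in replicates 2 and 5 as well, and CXCL8 in replicate 2. CXCL2 lay below both sums in replicates 2, 4 and 5.

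In HCT116, IL20RB stood at 36.6 and 25.1 at pH 6.5 and at 92.1, 96.7, 64.4, 49.1 and 55.0 at pH 7.4. The groups did not overlap, and it fell by 1.16 ± 0.33 (n = 2 and 5; limma adjusted p = 0.0263). Without pH 6.5 replicate 1 or 3 or pH 7.4 replicate 3 it was not called (−1.42, −0.89 and −1.04; limma adjusted p = 0.0598, 0.168 and 0.0570). The libraries labelled replicates 5, 6 and 7 held 656, 1327 and 2407, and with them the estimate turned to 2.05 (limma adjusted p = 0.220). The direction of the estimate thus depends on keeping these libraries apart. They held HCT116 genes at 58.8%, 1.94% and 0.581% and SiHa genes at 37.5%, 101% and 104%. SiHa at pH 6.5 held IL20RB at 1561 to 4222. Line and pH cannot be told apart in the estimate that includes them.

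In SiHa, IL20RB stood at 4222, 2352, 2263, 1930.1 and 1561 at pH 6.5 and at 3222, 3612 and 3710.05 at pH 7.4. Of the acidic libraries, replicates 4, 5, 6 and 7 lay below all neutral ones and replicate 1 above them. The difference of −0.59 ± 0.25 was not called (n = 5 and 3; limma adjusted p = 0.0884). Without pH 6.5 replicate 1 it was −0.81 and called (limma adjusted p = 0.00200). In SiHa pH 7.4 replicates 6 and 7 it stood at 3187 and 2011, and with them the difference was −0.41.

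CSF2, the gene of the growth factor GM-CSF, was scarce in all lines. In HCT116 it stood at 10.3 and 1.14 at pH 6.5 and at 11.7, 16.6, 21.1, 36.8 and 14.9 at pH 7.4. The groups did not overlap, but replicate 1 at pH 6.5 was close to replicate 1 at pH 7.4. It fell by 2.00 ± 0.62 (n = 2 and 5; limma adjusted p = 0.0392). The call was lost without pH 6.5 replicate 3, when the change was −0.80 (limma adjusted p = 0.365), and without pH 7.4 replicates 3, 5, 6 or 7 (limma adjusted p = 0.0627, 0.0806, 0.0724 and 0.0626). It was lost in edgeR and DESeq2 as well (adjusted p = 0.0942 and 0.0732).

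In FaDu, CSF2 stood at 23.9, 0.694, 10.5, 17.8 and 4.42 at pH 6.5 and at 8.79 at pH 7.4, and the difference of −0.17 ± 1.32 had an interval from −3.26 to 2.92. In SiHa it was at 0 in pH 6.5 replicates 1, 5, 6 and 7 and in pH 7.4 replicate 5, and at 2.80 at most elsewhere, so it was not tested.

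PTGS2 encodes cyclooxygenase-2, the inducible enzyme that commits arachidonic acid to prostaglandins. In SiHa it stood at 2539, 2393, 1894, 1990.4 and 1785 at pH 6.5 and at 1766, 599.6 and 303 at pH 7.4. The acidic libraries were close together and above the neutral ones, of which replicate 1 nearly reached them. It rose by 1.61 ± 0.41, to a level 3.06-fold higher (n = 5 and 3; limma adjusted p = 0.0139). The call was lost without pH 7.4 replicate 4 or 5 (1.52 and 1.03; limma adjusted p = 0.0510 and 0.0524) and in DESeq2 (1.26; adjusted p = 0.0609). SiHa pH 7.4 replicates 6 and 7 held 273 and 774, and with them the change was 1.84 (limma adjusted p = 0.00383).

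VIM ran opposite to PTGS2 across the 3 kept neutral SiHa libraries: it stood at 2.04, 28.4 and 165 in replicates 1, 4 and 5, where PTGS2 was highest in replicate 1 and lowest in replicate 5. The order did not extend to replicates 6 and 7, kept apart, with VIM at 2817 and 2863 and PTGS2 at 273 and 774. Of 8 fibroblast markers tested in SiHa, 3 were called lower at pH 6.5 (VIM, DCN and LUM) and 0 higher. The summed level of all 10 markers listed was 1135 to 3498 at pH 6.5 and 2990 to 4255 at pH 7.4. Most of it was COL3A1, with means of 1912 and 2819. Of the 10 markers listed, THY1 alone was below 1 at pH 6.5. Their part in the difference of PTGS2 was not tested.

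In FaDu the order was the opposite. PTGS2 stood at 283, 44.4, 94.5, 82.5 and 70.7 at pH 6.5 and at 950.1 in pH 7.4 replicate 1, above all acidic libraries. The difference of −3.34 ± 0.81 was not called (n = 5 and 1; limma adjusted p = 0.0518). It was called without pH 6.5 replicate 1 (−3.74; limma adjusted p = 0.000591), in edgeR (−3.06; adjusted p = 0.0427) and in DESeq2 (−3.05; adjusted p = 0.0418). The libraries kept apart held 93.7, 445, 366 and 116, and sums with HCT116 as above would give 131, 644, 491 and 285 with FaDu at pH 7.4, and 40.4, 87.3, 72.5 and 53.4 with FaDu at pH 6.5. With these libraries included the difference was −1.58 (limma adjusted p = 0.0726).

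In HCT116, PTGS2 stood at 35.5 and 34.2 at pH 6.5 and at 80.5, 33.1, 19.1, 23.3 and 17.2 at pH 7.4, and the groups overlapped. The difference of 0.25 ± 0.50 had an interval from −0.85 to 1.35 (n = 2 and 5; limma adjusted p = 0.767). The libraries labelled HCT116 pH 6.5 replicates 5, 6 and 7 held 1553, 6815 and 2386, levels seen in no kept HCT116 library, and with them the estimate was 4.06 (limma adjusted p = 0.0745).

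**Figure D2:**
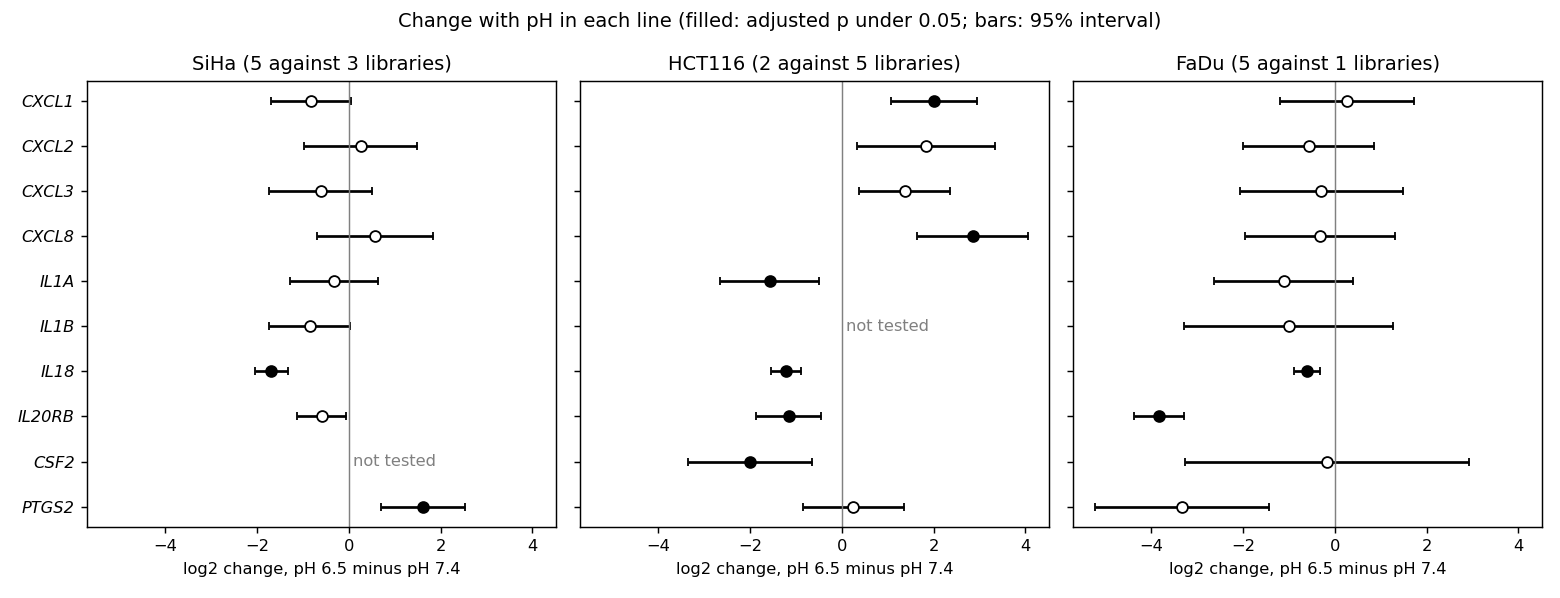
Change of each gene between pH 6.5 and pH 7.4 in each line, in log2 units on the horizontal axis, from the kept libraries. Points are estimates, bars 95% intervals, and filled points have a limma adjusted p under 0.05: IL18 is filled in all 3 lines, and IL20RB in FaDu lies farthest from 0.

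Whether the response to pH differed between lines was tested in 1 fit over the 21 kept libraries. The difference was called for 4 of the 10 genes, CXCL1, IL18, IL20RB and PTGS2, beside 33.1% of all genes tested. For IL20RB, the response differed from that in SiHa by −3.24 log2 units in FaDu and by −0.56 in HCT116 (limma F-test, adjusted p = 8.41e-05). For PTGS2 the response differed from that in SiHa by −4.95 in FaDu and by −1.36 in HCT116 (limma F-test, adjusted p = 0.00182). The change of IL18 was 1.08 higher in FaDu and 0.48 higher in HCT116 than in SiHa, that is, nearer to 0 (limma F-test, adjusted p = 0.00755). The response of CXCL1 was 2.84 higher in HCT116 and 1.09 higher in FaDu than in SiHa (limma F-test, adjusted p = 0.00922), and this call was lost without HCT116 pH 6.5 replicate 1 (adjusted p = 0.0996). The F-test covers both differences from SiHa at once, and the FaDu response rests on 1 library at pH 7.4.

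CXCL8, whose response differed from that in SiHa by 2.29 in HCT116 and by −0.90 in FaDu, was not called (limma F-test, adjusted p = 0.0533). It was called without FaDu pH 6.5 replicate 1, HCT116 pH 6.5 replicate 3, HCT116 pH 7.4 replicate 1, SiHa pH 6.5 replicate 4 or SiHa pH 7.4 replicate 5 (adjusted p = 0.0358, 0.0293, 0.0237, 0.0230 and 0.0429). CXCL3 (adjusted p = 0.122) was called without SiHa pH 6.5 replicate 1 (adjusted p = 0.0436). CXCL2, IL1A, IL1B and CSF2 had adjusted p of 0.203, 0.298, 0.961 and 0.407 in the same limma F-test. IL1B in HCT116 and CSF2 in SiHa were too low to be tested within those lines, so the F-test says little of their responses there.

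Levels of the same gene also differed between the lines. HCT116 and SiHa at pH 7.4 differed in 9 of 10 genes, 2 of them higher in HCT116, beside 68.5% of all genes. At pH 6.5, FaDu and SiHa differed in 8 (6 higher in FaDu; 70.2% of all genes), HCT116 and SiHa in 9 (3 higher in HCT116; 63.9%), and HCT116 and FaDu in 7 (0 higher in HCT116; 63.0%). With the libraries as labelled, HCT116 and SiHa differed in 5 at pH 6.5, and without HCT116 pH 6.5 replicate 3, HCT116 and FaDu differed in 4. The counts include IL1B in HCT116 and CSF2 in SiHa, which passed the filter only through other groups. The shares are high across the whole transcriptome, so the counts alone single out nothing about the 10 genes.

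IL1A and IL1B were highest in FaDu, then SiHa, then HCT116, at both pH values. At pH 6.5, FaDu exceeded SiHa by 5.82 ± 0.38 log2 units for IL1A and by 6.36 ± 0.53 for IL1B (limma adjusted p = 1.37e-11 and 7.11e-10). HCT116 differed from SiHa by −2.98 ± 0.51 for IL1A (limma adjusted p = 2.78e-05). For IL1B the estimate was −4.50 ± 0.71, with HCT116 at 0 and 1.14 at pH 6.5, so its size depends on the 1 added to each count. With the libraries as labelled the IL1B difference was −1.93 and not called (limma adjusted p = 0.0667).

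CXCL1 and CXCL8 were highest in FaDu too, by 2.92 ± 0.38 and 5.81 ± 0.52 over SiHa at pH 6.5 (limma adjusted p = 6.82e-07 and 2.05e-09). HCT116 and SiHa, the next in order, were not told apart in CXCL8 at pH 7.4 (−0.07 ± 0.60; limma adjusted p = 0.932). At pH 6.5 CXCL8 was higher in HCT116 by 2.22 ± 0.69 (limma adjusted p = 0.00768), a call lost without HCT116 pH 6.5 replicate 1 (1.31; limma adjusted p = 0.215). CXCL1 in HCT116 differed from SiHa by −4.22 ± 0.44 at pH 7.4 and by −1.38 ± 0.51 at pH 6.5 (limma adjusted p = 2.71e-08 and 0.0214), the second lost without HCT116 pH 6.5 replicate 3 (−0.59; limma adjusted p = 0.436) and with the libraries as labelled (−1.06; limma adjusted p = 0.0793). CXCL2 did not differ detectably between FaDu and SiHa at pH 6.5 (−0.64 ± 0.54; limma adjusted p = 0.297), and neither did CXCL3 between any pair of lines there. Among omissions of 1 library, CXCL3 was called higher in FaDu than in SiHa without FaDu pH 6.5 replicate 2 or SiHa pH 6.5 replicate 1 (1.19 and 1.26; limma adjusted p = 0.0264 and 0.0142).

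IL18 was lowest in SiHa, with FaDu higher by 1.97 ± 0.12 and HCT116 by 2.29 ± 0.16 at pH 6.5 (limma adjusted p = 3.62e-12 and 4.95e-11), and HCT116 and FaDu were not told apart (0.32 ± 0.16; limma adjusted p = 0.0846, and 0.0425 without SiHa pH 6.5 replicate 7). IL20RB was highest in SiHa at both pH values, and PTGS2 at pH 6.5. At pH 7.4 the FaDu library (950.1) lay within the SiHa range for PTGS2 (303 to 1766). At pH 6.5 IL20RB in FaDu stood −5.06 ± 0.22 from SiHa and PTGS2 −4.48 ± 0.46 (limma adjusted p = 1.16e-14 and 1.56e-08). HCT116 was lower again, differing from FaDu by −1.15 ± 0.29 for IL20RB and −1.39 ± 0.60 for PTGS2 (limma adjusted p = 0.00160 and 0.0498). The first call was lost without HCT116 pH 6.5 replicate 3 (adjusted p = 0.0512), the second in 15 of 21 omissions of 1 library, and with the libraries as labelled both turned, to 2.06 and 2.42. CSF2 stood higher in FaDu than in SiHa at pH 6.5, by 2.73 ± 0.62, and in HCT116 than in SiHa at pH 7.4, by 3.45 ± 0.72. In SiHa it was at 2.80 at most and passed the filter only through the other lines. These sizes depend on the 1 added to each count, and no p is read from them.

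Within groups, single libraries stood high or low for most members at once. FaDu pH 6.5 replicate 1 was the highest of its group for 9 of the 10 members and replicate 2 the lowest for 8, where replicate 1 was the highest for 37.0% of all genes and replicate 2 the lowest for 20.0%. SiHa pH 6.5 replicate 1 was highest for 7 of 9 members and replicate 7 lowest for 8 (27.0% and 27.7% of all genes). At pH 7.4, replicate 1 was highest for 8 of 9 members in SiHa (38.5% of all genes) and for 4 of 9 in HCT116 (33.9%). HCT116 pH 6.5 replicate 1 was above replicate 3 for 7 of 8 members, and for 53.9% of all genes. Across the 21 kept libraries, each centred on the mean of its line, Pearson's r between pairs of the 4 chemokines ran from 0.70 to 0.86. Centring on the line leaves the pH difference in r, so r does not measure the scatter within groups alone. IL18 had r of −0.05 with CXCL1 and −0.47 with CXCL8. The points share libraries and differ in depth, so r is a description.

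**Figure D3:**
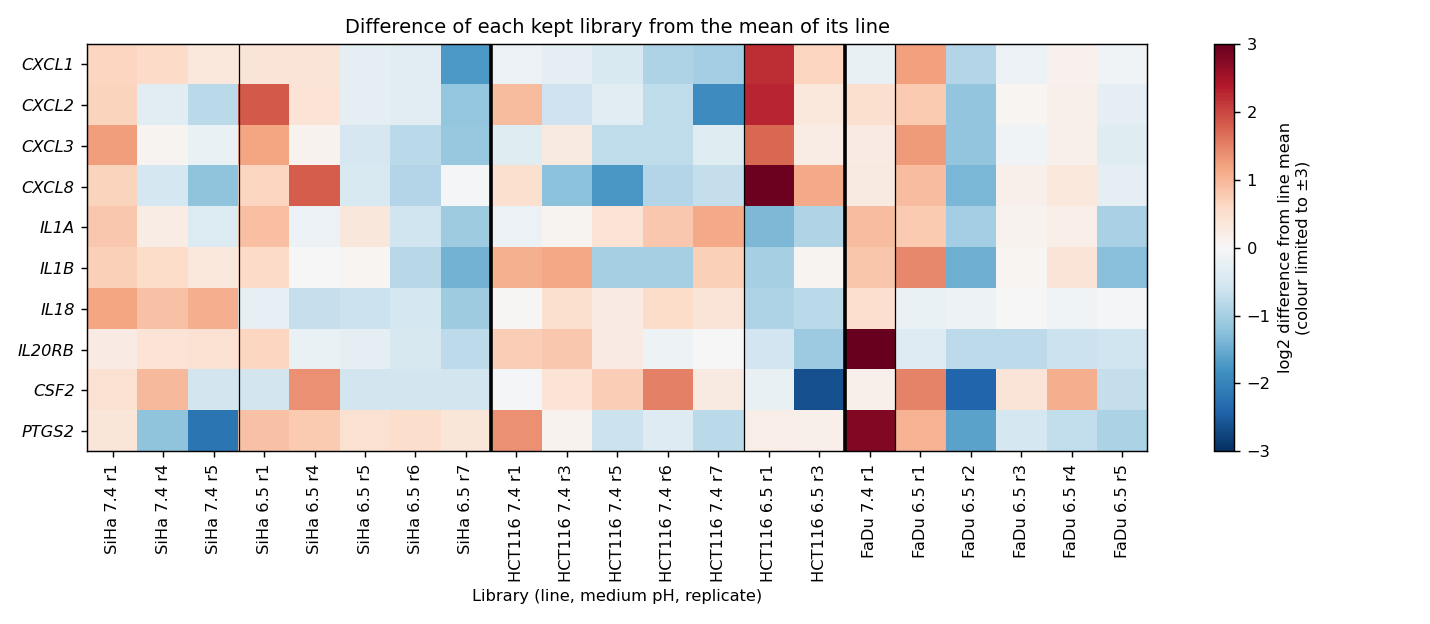
Difference of each kept library from the mean of its line, in log2 units, for each gene (rows) and library (columns, by line, pH and replicate). Thin lines part the pH groups and thick lines the cell lines. CXCL1, CXCL2, CXCL3 and CXCL8 are red together in HCT116 pH 6.5 replicate 1 and FaDu pH 6.5 replicate 1, and IL18 is blue throughout SiHa at pH 6.5.

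Genes whose profile was most like a member's were named by the highest Pearson's r among 13956 other genes over the same 21 centred libraries. IL18 was most like PRDM11, OCLN (occludin, a tight junction protein) and FRMD4B, each at r = 0.94. CXCL1 was most like TAF10 (0.92), ARF5 (0.92) and ATRAID (0.91), CXCL2 like PIGT (0.89), CXCL3 like SNHG8 (0.88) and CXCL8 like the long noncoding RNA CYTOR (0.90). IL20RB was most like S100A6 (0.92), PTGS2 like HDLBP (0.88), IL1B like PLOD2 (0.85), IL1A like TRABD2A (0.83) and CSF2 like LYN (0.83). No member of the 10 was a candidate in this search.

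The pathways around these genes were followed with 11 lists, whose counts are to be read beside the shares of all genes called, 31.2% in SiHa, 20.2% in HCT116 and 7.36% in FaDu. In HCT116, where CXCL1 and CXCL8 rose, 10 of 34 genes of IL-1 and NF-kappaB signal transduction were called (29.4%, beside 20.2% of all genes), 6 higher and 4 lower, with a list median of −0.05 beside −0.01 for all genes. The NF-kappaB targets BIRC3, an inhibitor of apoptosis, and TNFAIP3, a deubiquitinase that limits the pathway, rose by 1.93 ± 0.26 and 1.65 ± 0.35 (limma adjusted p = 0.000322 and 0.00578). NFKBIZ rose by 1.00 ± 0.21 (limma adjusted p = 0.00646), a call lost in the 1 fit over 21 libraries (limma adjusted p = 0.127). BIRC3 stood at 459 to 777 at pH 6.5 and 124 to 206 at pH 7.4. Without HCT116 pH 6.5 replicate 1 the calls of TNFAIP3 (0.93; limma adjusted p = 0.112) and NFKBIZ (0.64; limma adjusted p = 0.0957) were lost.

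Among 15 regulators of AU-rich transcripts, the class of short-lived messenger RNAs that includes many cytokines, 3 fell and 0 rose in HCT116, a share near that of all genes called there (20.2%), so the count is no result about the list. ZFP36L2 and ZFP36L1, which bind such transcripts and promote their decay, fell by 1.67 ± 0.23 and 1.54 ± 0.21 (limma adjusted p = 0.000434 and 0.000371). ZFP36L1 stood at 3642 to 4377 at pH 6.5 and 9195 to 17608 at pH 7.4. Of 11 AP-1 and C/EBP factors, JUN rose by 1.55 ± 0.49 (limma adjusted p = 0.0415), a call lost without HCT116 pH 6.5 replicate 1 (0.64; limma adjusted p = 0.498) and without pH 7.4 replicates 3, 5 or 7 (limma adjusted p = 0.0745, 0.0877 and 0.0755). FOSL2 fell by 1.49 ± 0.13 (limma adjusted p = 1.12e-05).

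Of 12 inflammasome and interleukin processing genes in HCT116, 3 rose and 1 fell, among them the inflammatory caspase CASP4 (1.19 ± 0.21; limma adjusted p = 0.00197). Of 2 other IL-1 family ligands and antagonists tested there, IL18BP, which binds and blocks IL-18, fell by 0.76 ± 0.18 (limma adjusted p = 0.0107). That call was lost without HCT116 pH 6.5 replicate 1 (−0.60; limma adjusted p = 0.103). Of 6 IL-1 family receptors, 1 rose and 2 fell. Of 4 other chemokines tested, 2 rose and 1 fell. The latter was CCL26, which fell by 2.98 ± 0.46 (limma adjusted p = 0.000929). Squamous markers moved in HCT116 as well, with 5 of 11 tested higher and 3 lower. The summed level of all 12 listed was 14256 to 23206 at pH 6.5 and 18576 to 26887 at pH 7.4. Of 7 colon markers, 1 was higher and 4 lower. The part of these squamous and colon markers in the changes above was not tested.

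In SiHa 8 of 20 genes of the prostaglandin list fell and 2 rose, where 31.2% of all genes were called and 16.2% were lower. The list median was −0.32, beside −0.01 for all genes. PTGS2 is a member and not in that count. While PTGS2 was higher, PTGES, the synthase of prostaglandin E2 that acts after it, fell by 1.84 ± 0.23 (limma adjusted p = 0.000308), from 578 to 875 at pH 7.4 to 159 to 325 at pH 6.5. PTGS1, the constitutive cyclooxygenase, fell by 1.224 ± 0.34 (limma adjusted p = 0.0206), a call lost without pH 7.4 replicate 1 or 5 (limma adjusted p = 0.0787 and 0.0748). AKR1B1, a reductase with prostaglandin F synthase activity, fell by 1.09 ± 0.25 (limma adjusted p = 0.00758).

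In FaDu, where PTGS2 was lower without passing the test, PTGES went the other way: it rose by 1.98 ± 0.44, from 116 in the neutral library to 257 to 624.5 (limma adjusted p = 0.0430). That call was lost without FaDu pH 6.5 replicates 2, 3, 4 or 5 (limma adjusted p = 0.0793 to 0.111). In HCT116, 5 of 20 prostaglandin genes fell and 2 rose, with PTGES at −0.93 ± 0.23 and HPGD, which degrades prostaglandins, at −2.30 ± 0.46 (limma adjusted p = 0.0150 and 0.00455). Both HCT116 calls were lost without pH 6.5 replicate 3 (limma adjusted p = 0.154 and 0.0786).

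The list of colony stimulating factors and the IL-6 family held 1 gene that rose in all 3 lines, CSF1, the macrophage growth factor. It rose by 2.41 ± 0.32 in HCT116, 1.71 ± 0.14 in FaDu and 0.98 ± 0.30 in SiHa (limma adjusted p = 0.000330, 0.00680 and 0.0285). CSF1 stood at 258 to 443 against 41.3 to 88.6 in HCT116, and at 1509 to 1860.06 against 504 in FaDu. The SiHa call was lost without pH 6.5 replicate 4 or 6 or pH 7.4 replicate 4 or 5 (limma adjusted p = 0.0604, 0.0592, 0.101 and 0.117). It was also lost with the SiHa libraries as labelled (0.64; limma adjusted p = 0.114) and with a replicate block (0.70; limma adjusted p = 0.0657). CSF2RA, the receptor subunit for the product of CSF2, was lower in SiHa, where it fell by 3.39 ± 0.30 (limma adjusted p = 4.77e-05), from 259 to 266 down to 14.0 to 36.4. In this list 4 of 15 genes rose and 2 fell in SiHa, 3 of 16 rose and 3 fell in HCT116, and 1 of 18 rose and 2 fell in FaDu.

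Receptors of the chemokines were scarce. Of 10 chemokine receptors and decoys in the table, 3 could be tested in SiHa, where 2 fell, 4 in HCT116, where 0 passed, and 4 in FaDu, where 1 fell. The one in FaDu was CXCR2, a receptor of all 4 chemokines, at 58.5 to 67.3 in the acidic libraries and 263 in the neutral one, where it fell by 2.05 ± 0.23 (limma adjusted p = 0.00921). With the FaDu libraries as labelled the CXCR2 difference was 0.04 (limma adjusted p = 0.969). IL1R1, the receptor of IL1A and IL1B, rose in SiHa by 0.62 ± 0.15 (limma adjusted p = 0.00980). In HCT116 IL1R1 fell by 0.53 ± 0.16 (limma adjusted p = 0.0320), a call lost without HCT116 pH 6.5 replicate 1 or pH 7.4 replicates 5, 6 or 7 (limma adjusted p = 0.206, 0.0686, 0.0721 and 0.0709).

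The partner of IL20RB also moved in HCT116: IL20RA, the alpha subunit, rose by 1.11 ± 0.26 while IL20RB fell (limma adjusted p = 0.0114), and this call was lost without HCT116 pH 6.5 replicate 1 (0.87; limma adjusted p = 0.127). Of the IL-20 receptor list, 1 of 5 tested genes rose in SiHa, 1 of 3 in HCT116 and 0 of 5 in FaDu, with 0 lower in each line. Of 14 inflammasome genes in SiHa, 2 rose and 3 fell, and PYCARD, the adaptor that joins sensors to caspase-1, fell by 1.30 ± 0.33 (limma adjusted p = 0.0127). In SiHa, 2 of 34 genes of IL-1 and NF-kappaB signal transduction rose and 4 fell, with NFKB2 at −0.83 ± 0.18 (limma adjusted p = 0.00650). In FaDu, 0 rose and 1 fell, BIRC2, which fell by 1.61 ± 0.35 (limma adjusted p = 0.0410). Leaving out any 1 of FaDu pH 6.5 replicates 2 to 5 ended the FaDu call of BIRC2 (limma adjusted p = 0.0816 to 0.109).

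Lists not described above moved as follows. Of the other CXC and CC chemokines, 2 of 4 tested rose in SiHa, among them the mucosal chemokine CCL28 (0.78 ± 0.15; limma adjusted p = 0.00303), and 1 of 8 rose in FaDu, with 0 lower in both lines. Of the other IL-1 family ligands and antagonists, 1 of 3 rose in SiHa, 0 fell there, and 0 of 6 were called in FaDu. Of the IL-1 family receptors, 1 of 6 rose and 2 fell in SiHa, and 0 of 7 were called in FaDu. Of the AP-1 and C/EBP factors, 1 of 11 rose and 1 fell in SiHa, and 0 of 11 were called in FaDu. Of the regulators of AU-rich transcripts, 3 of 15 rose and 3 fell in SiHa, and 0 of 15 were called in FaDu. In FaDu, 1 of 14 inflammasome genes rose, GSDMD, the pore former of pyroptosis (0.73 ± 0.13; limma adjusted p = 0.0236), and 2 of 19 prostaglandin genes rose and 1 fell. The GSDMD call was lost without FaDu pH 6.5 replicates 2, 3, 4 or 5 (limma adjusted p = 0.0529 to 0.0822).

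**Figure D4:**
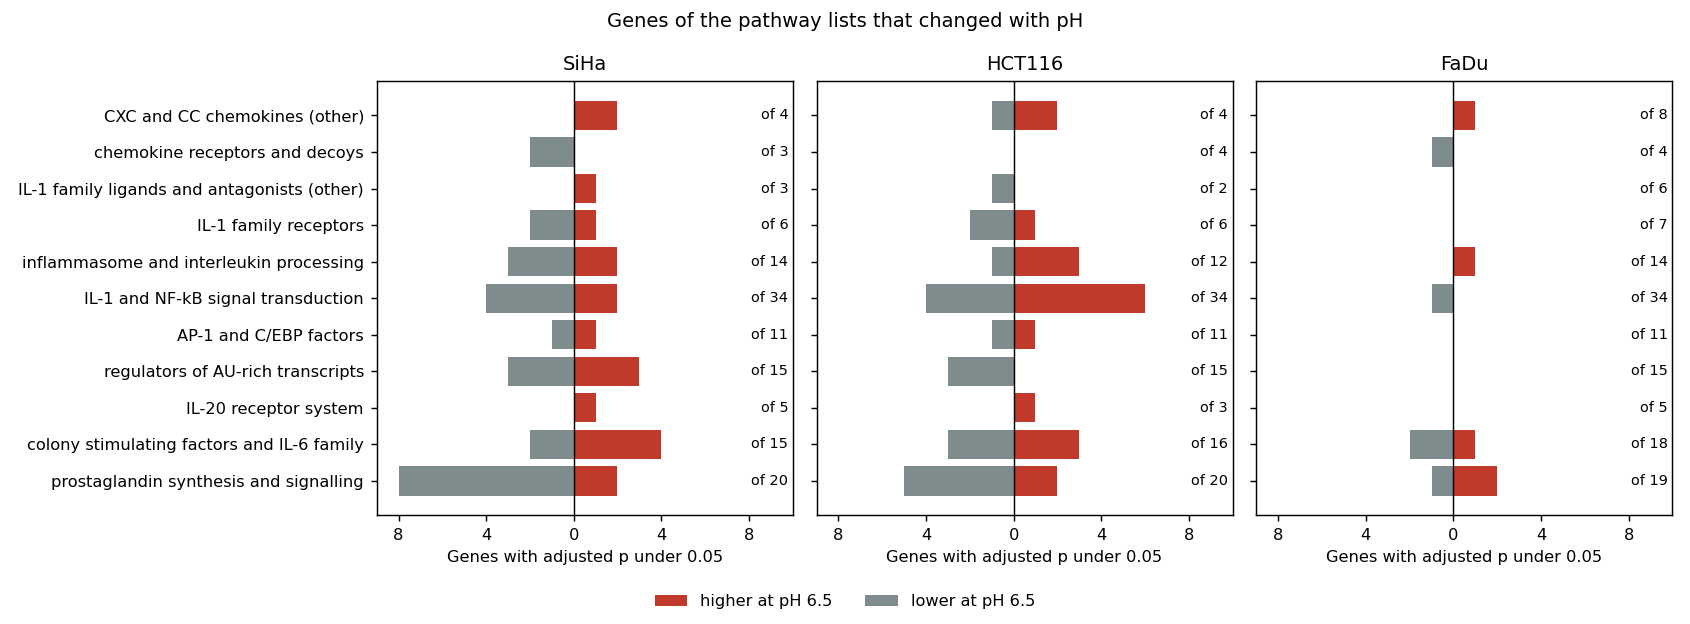
Number of genes in each of the 11 pathway lists with a limma adjusted p under 0.05, higher at pH 6.5 to the right and lower to the left on the horizontal axis, in each line. The number tested stands at the right, and the 10 members are not counted. The longest bar is that of the prostaglandin list in SiHa, with 8 of 20 genes lower, and lists differ in size.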

How the data were processed

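RNA was measured in 30 libraries. Reads were trimmed with Trimmomatic 0.38, aligned with STAR 2.6.1d to GRCh37 and normalised with DESeq2 1.22.2, as far as the submitters' processing notes name tools. No source used here gives the read counter, its strand setting or its annotation, so reads from a gene and its antisense partner may not be told apart. The authors deposited 1 table of normalised counts, in the unit signal. Within a library all values (100.0%, to within 0.01 of a step) were whole multiples of the smallest one above 0, and division by it recovered whole reads. For 1 library this step lay too near 1 to be checked independently. Libraries held 21.0 to 55.7 M reads. Reads carry no molecular identifiers, so detection limits cover counting error alone. Symbols were found for 28662 of 38122 identifiers.

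Groups came from the sample labels. In each line, limma 3.58.1 (R 4.3.3), with a trend on intensity, was fitted to log2(normalised count + 1) for genes whose higher group had a mean of 10 or more, and p was adjusted by Benjamini-Hochberg over all genes tested, 2-sided. The differences between lines and between their pH responses came from 1 limma fit over 21 libraries, of genes with a mean of 10 or more in any of the 6 groups. Alternatives were the libraries as labelled, pseudocounts of 0.5 and 5, no filter, scaling by library total or TMM, edgeR 4.0.16, DESeq2 1.42.0, a replicate block, and leaving out each library. The fits were tested on simulated data. Listed genes were named where adjusted p was under 0.05 and the mean reached 100 in the higher group, at most 3 per list and line by size of change, and the text gives a part of these. Genes like a member had a mean of at least 100 in 1 group. Promoters came from RefSeq on GRCh38.p14, another build than that of the reads. Members and lists were chosen with earlier results of these data known. Python 3.11.15, numpy 2.4.6, pandas 2.3.3 and matplotlib 3.10.9 were also used.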

Additional observations from a re-analysis of the deposited data

Results flagged for a closer look

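In 4 of 28 pairs of gene and group with 4 or more kept libraries, 1 library lay far from the rest, judged by its gap to the next over the whole range of the group. For independent values with a normal spread, this rule would mark about 1 in 20 such groups by chance. Normalised counts were used here without logs, and the genes of a group share its libraries, so that rate may not hold. Each of the 4 was the highest library and each was replicate 1: CXCL2 at 686 in SiHa pH 6.5 replicate 1, with the other 4 at 83.7 to 250.4, PTGS2 at 283 in FaDu pH 6.5 replicate 1, with the others at 44.4 to 94.5, and, in HCT116 pH 7.4 replicate 1, CXCL8 at 98.5 and PTGS2 at 80.5.

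The response to pH differed between lines, by the limma F-test of the interaction over 21 libraries, for CXCL1 (adjusted p = 0.00922), IL18 (adjusted p = 0.00755), IL20RB (adjusted p = 8.41e-05) and PTGS2 (adjusted p = 0.00182). IL20RB and PTGS2 had changes of −3.83 and −3.34 in FaDu, whose pH 7.4 group is 1 library, and of −0.59 and 1.61 in SiHa.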

How the results depend on the processing

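Of 451 values of the members' changes within lines under other settings, 394 kept direction and side of the threshold, 36 lost the call, 20 gained it and 1 turned, IL20RB in HCT116 with the libraries as labelled (2.05). With those libraries IL1R1 in HCT116 turned to 0.66, CXCR2 and CSF2RA in FaDu to 0.038 and 0.48, and the HCT116 minus FaDu contrasts at pH 6.5 to 2.06 for IL20RB and 2.42 for PTGS2. Members called in SiHa numbered 2, and 1 in DESeq2; in HCT116 6, and 3 with no filter; in FaDu 2, and 1 with scaling to the library total. Leaving out 1 library gave 1 to 4 in SiHa, 2 to 7 in HCT116 and 1 to 3 in FaDu. Between HCT116 and SiHa at pH 6.5, 9 members were called, and 5 as labelled. Between HCT116 and FaDu there were 7, and 4 to 7 on leaving out 1 library. IL18 in SiHa and HCT116 was called in every alternative run. IL20RB in FaDu was too, but no run could leave out FaDu pH 7.4 replicate 1, on which its call rests. With the libraries as labelled the IL20RB change in FaDu was −1.71. The cause of the other differences was not tested.

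Among all genes, 1411 were called in FaDu, 9115 as labelled, 2466 in DESeq2, 2566 in 1 fit over 21 libraries and 66 to 7039 on leaving out 1 library. In SiHa 5787 were called, 3551 without pH 7.4 replicate 5, and in HCT116 3819, 2198 without pH 6.5 replicate 1.

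Whether replicate numbers pair the libraries is not given by the labels and was not settled, and the main fits took them as unpaired. Libraries of 1 number correlated at 0.05 to 0.32 in SiHa (3 pairs) and 0.06 to 0.17 in HCT116 (2 pairs). Among all kept libraries of the other pH, 3 of 3 numbered SiHa libraries at pH 6.5 and 1 of 3 at pH 7.4 correlated best with their own number, and 1 of 2 and 2 of 2 did in HCT116. The 2 centred HCT116 libraries at pH 6.5 are mirror images (0.17 and −0.17 with pH 7.4 replicate 1), so the check cannot decide there. With a replicate block, 3 members were called in SiHa, CXCL2 newly so (0.82; limma adjusted p = 0.00799), and 4 in HCT116, without IL1A and CSF2. In FaDu no block could be fitted with 1 shared number. Depth limits IL1B in HCT116 and CSF2 in SiHa, which were too low to be tested, and n limits FaDu, with 1 library at pH 7.4.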
